A study of Danio rerio with 4 samples.

Results

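Splicing factors and the proteins of the small nuclear ribonucleoproteins (snRNPs) were followed between the primary growth and the pre-vitellogenic stage of zebrafish ovarian follicles. The genes were chosen by name. They are the protein-coding names of the mRNA table that begin with srsf, snrp, sf3a, sf3b, prpf, lsm, hnrnp or u2af, at 1 FPKM (fragments per kilobase of transcript, scaled to the number of mapped fragments) or more in at least 1 library. Of 89 such names 86 reached that level, out of 13317 protein-coding names that did so in the whole table. The 3 names left out were lsm11, at 0.0836 FPKM at the primary growth stage and 0.0802 FPKM at the pre-vitellogenic stage, hnrnpa3, at 0.117 and 0.388 FPKM, and HNRNPK (3 of 3), listed at 0 in both. Nearest above the minimum were hnrnph1, at 3.48 and 4.67 FPKM, and HNRNPH3, at 1.55 and 5.57 FPKM.

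Follicles of both stages came from ovaries of untreated AB fish at 3 months of age and were separated by how large they were and how they looked. A primary growth follicle holds a small oocyte inside a thin cell layer, and a pre-vitellogenic follicle has left that stage but takes up no yolk yet. Each stage gave 1 mRNA library of total follicle RNA, so oocyte and follicle cells were measured together and no difference has a replicate check, a p-value or a standard error. The sample titles call both libraries PG, while the cell type labels name 1 of each stage, and these labels were followed. The labels do not say from how many fish the follicles of a library came.

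Introns are removed from pre-mRNA by the spliceosome, which is assembled anew on each intron from the U1, U2, U4, U5 and U6 snRNPs. Each snRNP is a small RNA carrying a ring of Sm or LSm proteins and further proteins of its own, such as the SF3A and SF3B complexes of U2, while U2AF marks the end of the intron for U2 to bind. SR proteins and hnRNP proteins bind exons and introns and steer which splice sites are used, and many of them also accompany the mRNA later. A growing oocyte transcribes and splices a large store of mRNA that the embryo will use before its own genome is active.

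By their median difference the 86 genes stood at about the same FPKM in both libraries, while protein-coding names in general stood higher in pre-vitellogenic follicles. The difference of a gene is given throughout as log2 of (FPKM + 1) in pre-vitellogenic over primary growth follicles, so positive values mean higher in pre-vitellogenic follicles, and the added 1 FPKM makes differences of low genes smaller than they are. Its median was 0.00 over the 86 genes and 0.52 over all 13317 names. At a difference of 2-fold or more, 8 of the 86 were higher in pre-vitellogenic follicles (9.30%, against 29.6% of all names) and 3 were lower (3.49%, against 5.37%), which leaves 75 within 2-fold. The 8 were prpf8, hnrnpul1, prpf4ba, HNRNPH3, srsf5b, sf3b1, srsf6b and prpf4bb, and the 3 were LSM5, snrpf and snrpd1. Above the median of all names lay 28 of the genes and below it 58. Their summed level went from 7679 to 6728 FPKM, while all protein-coding FPKM went from 665305 to 556531. Of that total the 86 genes made up 1.15% at the earlier stage and 1.21% at the later one. The median gene among them stood at 44.0 and 56.3 FPKM, against 8.43 and 15.1 FPKM over all names.

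The classes parted from each other within this set. The median difference was -0.65 for the Sm core, -0.40 for LSm proteins, -0.17 for U1, U2 and U2AF proteins, -0.05 for SR proteins, 0.38 for hnRNP proteins and 0.61 for PRPF proteins. The sign for Sm, LSm and PRPF was the same under all 11 other settings tried, but the size was not. The median of LSm proteins lay between -0.85 and -0.06 and that of PRPF proteins between 0.12 and 0.94, the lowest with the length trend removed, and PRPF proteins stood at 0.17 with centring. U1, U2 and U2AF proteins turned to 0.09 and SR proteins to 0.19 with both libraries scaled to the same FPKM total. With centring, which takes each difference relative to the median of names at 1 FPKM or more in both libraries, hnRNP proteins turned to -0.07. No deposited interval separated the stages for any of these genes. Of 144 protein-coding transcripts of the set, 0 had the authors' lower bound in one library above their upper bound in the other. Of all 19025 such transcripts the bounds lay apart for 0 that were higher in pre-vitellogenic follicles (0%) and 6 that were lower (0.0315%). The bounds are wide: the lower one was above 0 for 37 of the 144 transcripts in primary growth and for 34 in pre-vitellogenic follicles.

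**Figure D1:**
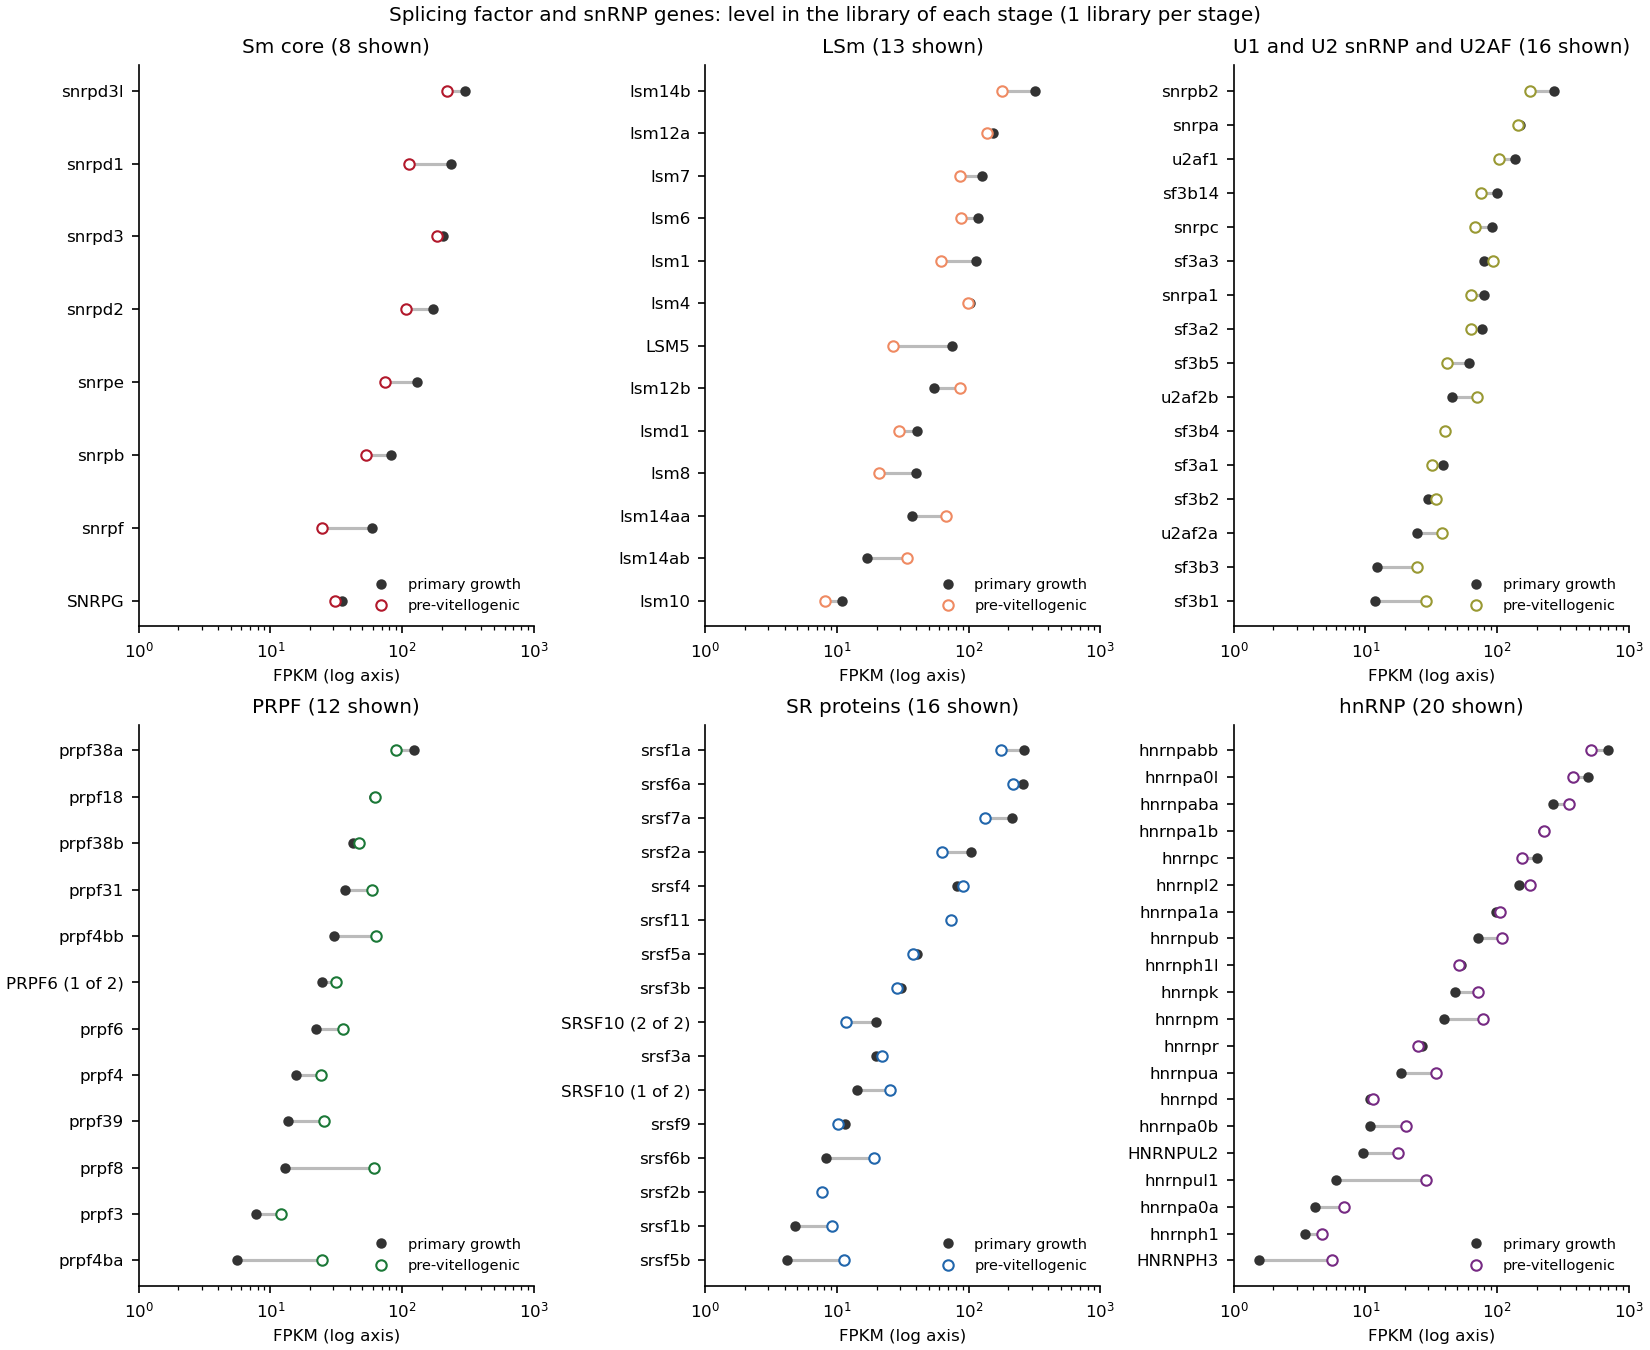
Level of 85 of the 86 genes in FPKM on a log axis, 1 panel per class, with a filled point for the primary growth library and an open point for the pre-vitellogenic library (1 library per stage, no error bars). In these values all 8 Sm genes lie lower in pre-vitellogenic follicles, and 2 of them turn with the same FPKM total or with the length trend removed. The PRPF genes shown lie higher, except prpf38a, and prpf18, prpf38b and PRPF6 (1 of 2) among them turn with centring. Of all 13317 protein-coding names 9517 lie higher.

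**Figure D2:**
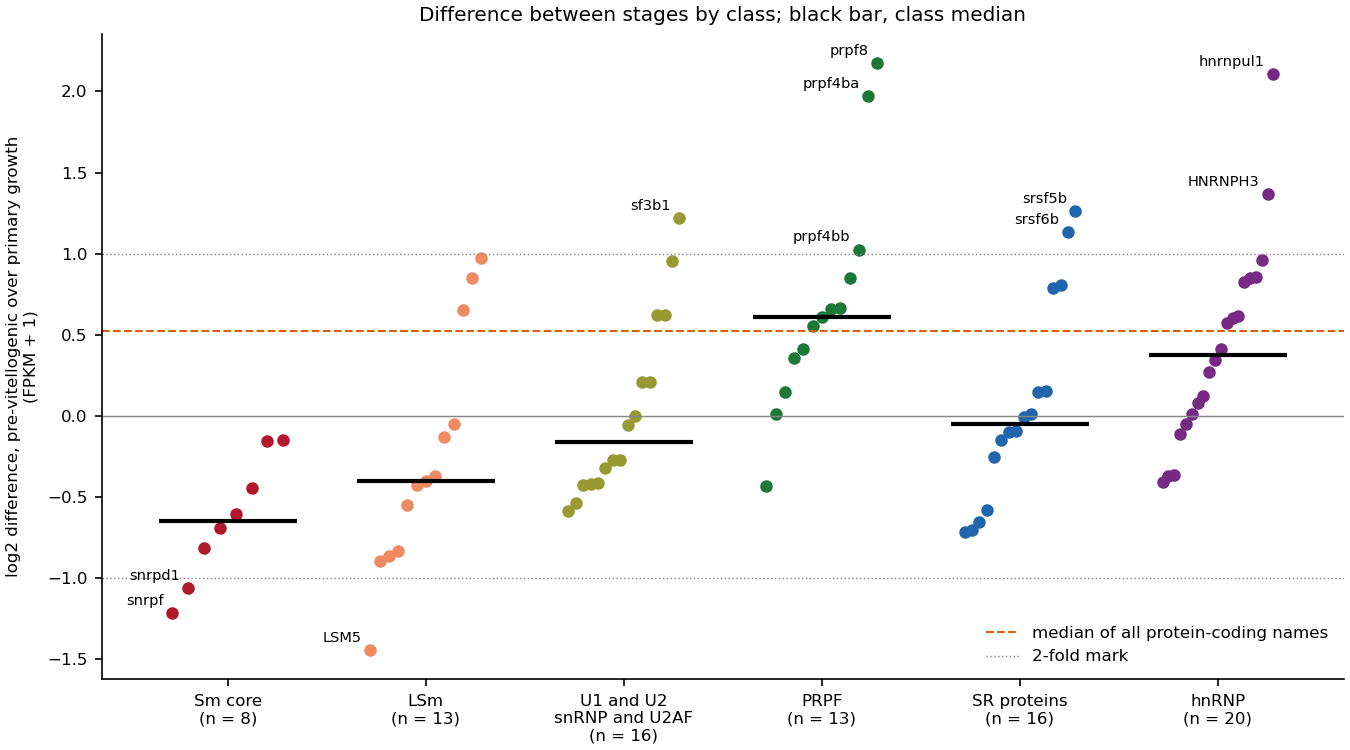
Difference of each gene on the log2 scale of FPKM + 1, by class, with the class median as a black bar, the median of all protein-coding names (0.52) as a dashed line and the 2-fold marks as dotted lines. The class medians run from -0.65 for the Sm core to 0.61 for PRPF proteins; with libraries scaled to the same total the medians of U1, U2 and U2AF and of SR proteins turn positive, and with centring that of hnRNP proteins turns negative.

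How the counts read against all names depends on the scaling between the libraries. With both scaled to the same FPKM total, 18 of the 86 genes were 2-fold higher (38.4% of all names) and 1 lower (3.31%), and with mitochondrially encoded genes kept out of that total again 18 higher (41.5%) and 1 lower (2.75%). Centred on the names present in both libraries, a shift of 0.44, there were 3 higher (14.7%) and 14 lower (12.2%). Scaling by the 75th percentile gave 4 higher (17.5%) and 14 lower (11.2%). With the trend along transcript length removed and the rest centred, 3 were higher (12%) and 5 lower (8%). A pseudocount of 5 FPKM gave 4 higher (13.9%) and 3 lower (3.03%), and the most abundant transcript of each name alone gave 9 higher (29.7%) and 2 lower (6.02%). The share of higher genes, between 3.49% and 20.9%, was below that of all names in each of these settings. The share of lower genes turned: it was 16.3% with centring and by the 75th percentile and 3.49% with a pseudocount of 5 FPKM, above that of all names, and below it as deposited. LSM5, hnrnpul1 and prpf4ba were past 2-fold in all 11 settings and prpf8 in 10 of them; it stood at 0.95 with the length trend removed. No gene past 2-fold in the values as deposited was past it the other way in any setting.

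The Sm proteins, which form the ring around the U1, U2, U4 and U5 RNAs, were the class with the lowest median difference. In pre-vitellogenic follicles 8 of 8 genes stood lower, beside 3800 of all 13317 names. Of the 8, 2 were 2-fold lower (25%, against 5.37% of all names). All 8 are below 1000 bases, a range in which 17.2% of all names were 2-fold lower. With both libraries scaled to the same total snrpd3 and SNRPG turned to 0.10 and 0.09, and with the length trend removed both stood at 0.01. By its most abundant transcript alone SNRPG was at 0.24. The most abundant Sm gene was snrpd3l at 301 FPKM in primary growth and 220.3 FPKM in pre-vitellogenic follicles. It shares its current symbol with snrpd3, at 205 and 184 FPKM, so the division of reads between these copies of the D3 gene is uncertain. With a difference of -0.15, snrpd3 lay closest to even in the ring. The gene snrpd1, which encodes the D1 subunit (Zv9 chr19:1996199-2001151), was at 237 and 113 FPKM, a difference of -1.07. The largest difference was that of snrpf, the F subunit (Zv9 scaffold Zv9_NA880, 20080 to 23231), at 58.8 and 24.7 FPKM, or -1.22. The partners that pair with these subunits in the ring had smaller differences: snrpd2, the partner of D1, was at 173 and 106 FPKM, and snrpe, the partner of F, at 131 and 73.7 FPKM. SNRPG, the G subunit, was at 34.8 and 31.2 FPKM and snrpb, the B subunit, at 81.7 and 53.3 FPKM. In summed FPKM the ring went from 1222 to 806. Both calls were lost with the libraries scaled to the same total, where snrpf was at -0.97 and snrpd1 at -0.81. That of snrpd1 was also lost with the length trend removed, at -0.91, and by its most abundant transcript alone, at -0.95. The class median ranged from -1.09 to -0.31 over the settings. With the length trend removed it was -0.53.

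LSm proteins build the related rings on U6 in the nucleus and, with LSm1 in place of LSm8, on mRNAs awaiting decay in the cytoplasm. All 6 ring genes under lsm names stood lower in pre-vitellogenic follicles, beside 3800 of all 13317 names. Of these 6, lsm4 turned to 0.20 with both libraries scaled to the same total and to 0.08 with the length trend removed. Among the 13 LSm genes 1 was 2-fold lower (7.69%, against 5.37% of all names). LSM5, a subunit of both rings (Zv9 chr12:14437570-14443081), was the one past 2-fold, at 74.5 FPKM in primary growth and 26.7 FPKM in pre-vitellogenic follicles, a difference of -1.45. It was 2.79 times as high in primary growth, and its difference ranged from -1.89 to -1.11 over the settings. The subunits that set the rings apart stood lower side by side. The nuclear lsm8 was at 39.9 and 20.9 FPKM, a difference of -0.90, and the cytoplasmic lsm1 at 113 and 61.4 FPKM, a difference of -0.87. The shared subunits lsm7, at 126 and 85.4 FPKM, and lsm6, at 117 and 88.1 FPKM, were closer to even, and lsm4, at 102 and 98.7 FPKM, had a difference of -0.05. The remaining subunits of the ring stand in the table under other names and are not among the 86. Of these lsm2, listed as smx5, was at 35.4 and 21.1 FPKM, and lsm3, listed under a clone name, was at 133 and 80.0 FPKM, both with a difference of -0.72.

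LSm proteins outside the rings were mixed. The LSM14 proteins bind stored and repressed mRNA, and in Xenopus their relative RAP55 is part of the mRNA stores of the oocyte. The 3 zebrafish genes went different ways: lsm14b, the most abundant gene of the class, was at 319.7 and 178 FPKM, a difference of -0.84, while lsm14aa, at 37.0 and 67.4 FPKM, and lsm14ab, at 16.8 and 34.0 FPKM, were higher in pre-vitellogenic follicles with 0.85 and 0.97. Their mean transcript lengths were 1702 bases for lsm14b, 3870 for lsm14aa and 3414 for lsm14ab. With the length trend removed lsm14b was at -1.15, lsm14aa at -0.19 and lsm14ab at 0.01. The copies of LSM12 stood at 152 and 139 FPKM for lsm12a and at 54.3 and 86.0 FPKM for lsm12b. Of the U7 snRNP, which cuts the ends of histone mRNAs and carries LSm10 and LSm11 in its ring, lsm10 was present at 10.8 and 8.15 FPKM and lsm11 was near 0, as given above. The last member, lsmd1, was at 40.3 and 29.7 FPKM; its human counterpart is a subunit of an enzyme that acetylates protein ends rather than a splicing factor.

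Among the proteins of U1, U2 and U2AF, 10 of 16 genes stood lower in pre-vitellogenic follicles, beside 3800 of all 13317 names. Of the other 6, 1 was past 2-fold (6.25% of the 16, against 29.6% of all names). With both libraries scaled to the same total snrpa and sf3b4 turned to 0.20 and 0.25, and with centring sf3a3 and sf3b2 turned to -0.23 and -0.24. The U1 proteins snrpa, which binds a loop of U1 RNA, and snrpc, which steadies U1 on the 5′ splice site, were at 149 and 143 FPKM and at 92.0 and 67.9 FPKM. The U2 proteins snrpb2 and snrpa1 bind a loop of U2 RNA together. The first was the most abundant of the class and had its lowest difference, at 269 and 178 FPKM or -0.59, and the second was at 79.5 and 63.3 FPKM or -0.32. The SF3A subunits, which join SF3B on U2, had differences between -0.27 and 0.21: sf3a1 was at 38.7 and 31.9 FPKM, sf3a2 at 77.3 and 63.8 FPKM and sf3a3 at 80.0 and 92.6 FPKM.

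SF3B, the complex that holds the branch point adenosine in the U2 snRNP, held both subunits that stood lower and the highest difference of the class. Its scaffold sf3b1 (Zv9 chr9:33194931-33210425), whose coding transcript has 4644 bases, was at 11.9 FPKM in primary growth and 28.9 FPKM in pre-vitellogenic follicles, a difference of 1.22. Its partner sf3b3, with 4367 bases, followed at 12.3 and 24.7 FPKM or 0.95, and was at -0.14 with the length trend removed. The middle-sized sf3b2, at 29.8 and 34.5 FPKM, and sf3b4, at 40.2 FPKM in both, were near even. The small subunits were lower: sf3b14, now named SF3B6 and in contact with the branch point, was at 101 and 74.9 FPKM, and sf3b5, with 564 bases, at 61.0 and 41.7 FPKM. The call of sf3b1 was lost with centring and by the 75th percentile, at 0.78 and 0.79, and with the length trend removed, at 0.11. In the same fashion the small U2AF subunit, which reads the AG at the end of the intron, was lower in pre-vitellogenic follicles as deposited. The large one, which binds the pyrimidine tract before that AG, was higher. The values were 138 and 103 FPKM for u2af1, 24.6 and 38.4 FPKM for u2af2a and 45.2 and 69.9 FPKM for u2af2b. The copies of the large subunit had the same difference as deposited, 0.62. With the length trend removed u2af2a was at -0.14 and u2af2b at 0.28, while u2af1 was at -0.35.

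PRPF proteins, named after yeast mutants in pre-mRNA processing, held the highest class median. Of the 13 genes 3 were 2-fold higher (23.1%), against 29.6% of all names. The class stood higher in pre-vitellogenic follicles in 12 of 13 genes, beside 9517 of all 13317 names. Above the median of all names lay 8 of the 13 and below it 5. With centring prpf18, prpf38b and PRPF6 (1 of 2), among others, turned negative, to -0.43, -0.30 and -0.09. The summed FPKM of the class went from 434 to 587. The largest difference of all 86 genes was that of prpf8, the U5 protein that forms the heart of the catalytic centre (Zv9 chr15:27598051-27611516). It was at 12.8 FPKM in primary growth and 61.4 FPKM in pre-vitellogenic follicles, a difference of 2.18, or 4.79 times as high. Both of its coding transcripts stood higher, the shorter from 2.83 to 26.6 FPKM and the longer from 9.97 to 34.8 FPKM. At 7334 bases it has the longest mean transcript of the set, and with the length trend removed it was at 0.95.

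The other PRPF proteins of the U4/U6.U5 tri-snRNP, the particle that delivers the catalytic snRNPs, had smaller differences than prpf8, all above 0 as deposited. In U4/U6, prpf31 was at 37.2 and 59.2 FPKM, prpf4 at 15.5 and 24.2 FPKM and prpf3 at 7.82 and 12.0 FPKM. Their differences lay between 0.56 and 0.66, close to the median of all names. PRPF6 bridges U5 to U4/U6 and is split in the table into prpf6, at 22.0 and 35.6 FPKM, and PRPF6 (1 of 2), at 24.5 and 31.5 FPKM. Both are on chromosome 23 with models of 798 and 759 bases, so the division of reads between them is uncertain. The kinase PRP4, which phosphorylates tri-snRNP proteins during activation, was past 2-fold in both of its copies. The less abundant prpf4ba (Zv9 chr2:32528356-32543983) was at 5.57 and 24.8 FPKM, a difference of 1.97, and prpf4bb (Zv9 chr24:11245793-11278284) at 30.6 and 63.3 FPKM, a difference of 1.02. With the length trend removed prpf4ba was still past the mark at 1.07 and prpf4bb was at 0.02; the call of prpf4bb was also lost with centring, by the 75th percentile and with a pseudocount of 5 FPKM.

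PRPF proteins that act around the tri-snRNP were mixed. The most abundant was prpf38a, needed for activation of the assembled spliceosome, at 122 and 90.1 FPKM. Its difference of -0.43 was the only one below 0 in the class. Its relative prpf38b was at 42.7 and 47.4 FPKM, and prpf18, a factor of the second catalytic step, was at 61.4 and 61.9 FPKM. The U1-associated protein prpf39 was at 13.7 and 25.5 FPKM, a difference of 0.85. Another family member, the ubiquitin ligase prpf19, is listed as prp19 outside the 86 and was at 86.4 and 92.6 FPKM.

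SR proteins, which bind exons through RNA recognition motifs and recruit U1 and U2AF through arginine-serine tails, were led by genes that stood lower in pre-vitellogenic follicles, while both genes past 2-fold were scarce and stood higher. The most abundant by the mean of both libraries was srsf6a at 259 FPKM in primary growth and 216 FPKM in pre-vitellogenic follicles, a difference of -0.26. It was followed by srsf1a at 262 and 175 FPKM, or -0.58, and by srsf7a at 211 and 134 FPKM, or -0.66. The lowest difference was that of srsf2a, at 105 and 63.2 FPKM or -0.72. None of these passed 2-fold as deposited, while srsf1a, srsf2a and srsf7a did with centring, at -1.02, -1.16 and -1.10. Past 2-fold in the other direction were srsf5b (Zv9 chr20:28895877-28910737), at 4.14 and 11.3 FPKM or 1.26, and srsf6b (Zv9 chr11:1487408-1496137), at 8.19 and 19.1 FPKM or 1.13. They made up 12.5% of the 16 SR genes, against 29.6% of all names. Both calls were lost with a pseudocount of 5 FPKM, with centring, by the 75th percentile and with the length trend removed, where srsf5b was at 0.64 and srsf6b at 0.44.

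Near even lay srsf11, at 73.1 and 73.7 FPKM, srsf4, at 81.9 and 91.1 FPKM, and srsf5a, at 40.6 and 37.9 FPKM. Both copies of SRSF3, the smallest SR protein and also an adaptor of mRNA export, were within 0.15 of even, srsf3a at 19.7 and 21.9 FPKM and srsf3b at 30.8 and 28.7 FPKM. By its most abundant transcript alone srsf3b was at -0.82. That transcript made up 75.9% of the coding FPKM of srsf3b at the earlier and 44.6% at the later stage. SRSF10, which represses splicing when dephosphorylated, was split between 2 copies that exchanged rank. SRSF10 (1 of 2) was at 14.2 and 25.1 FPKM and SRSF10 (2 of 2), now named srsf10b, at 19.8 and 11.7 FPKM, while their sum was 33.9 and 36.9 FPKM. Among the scarcer genes, srsf9 was at 11.5 and 10.2 FPKM and srsf2b at 7.75 and 7.70 FPKM.

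hnRNP proteins coat nascent transcripts, often as silencers of exons, and several shuttle with mRNA to the cytoplasm. This class held the most abundant genes of the set and summed to 2418 FPKM in primary growth and 2378 FPKM in pre-vitellogenic follicles. The 3 most abundant were hnrnpabb at 693 and 519.9 FPKM, hnrnpa0l at 489 and 378 FPKM and hnrnpaba at 265 and 353 FPKM. The name hnrnpa0l sums 2 gene IDs, of which the smaller, at 11.8 and 11.2 FPKM, now has the unrelated symbol gzf1; without the name the median of the set was 0.01. The difference of hnrnpabb, -0.41, was the lowest of the class. Its copy hnrnpaba, at 0.41, went the other way, so that the pair summed to 958 and 873 FPKM.

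Past 2-fold were hnrnpul1 and HNRNPH3 (10% of the 20 genes, against 29.6% of all names). The first, a relative of the scaffold protein hnRNP U (Zv9 chr18:34147424-34177509), was at 5.95 FPKM in primary growth and 28.9 FPKM in pre-vitellogenic follicles, a difference of 2.11. The authors' bounds for it were 0 to 12.6 FPKM and 1.84 to 56.0 FPKM, so even this 4.86-fold higher value lay within overlapping intervals. HNRNPH3, of the family that binds runs of G (Zv9 chr13:23003728-23012160), was at 1.55 and 5.57 FPKM, a difference of 1.36 that was 0.92 with centring and 0.69 with a pseudocount of 5 FPKM. The other genes of the hnRNP U family pointed the same way as deposited without passing the mark, and lay at -0.02, -0.33 and -0.49 with the length trend removed. HNRNPUL2 was at 9.57 and 17.8 FPKM, hnrnpua at 18.5 and 34.3 FPKM and hnrnpub at 71.1 and 108 FPKM. hnrnpm, which binds GU-rich introns, was at 39.4 and 77.5 FPKM or 0.96.

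The remaining hnRNP genes lay between -0.37 and 0.85. hnrnpc, a U-tract binder that packages nascent RNA, was at 199.8 and 154 FPKM, and hnrnpk, which binds C-rich RNA, at 47.5 and 71.0 FPKM. The A1 genes hnrnpa1a and hnrnpa1b, general repressors of exons, were near even at 97.5 and 106 FPKM and at 224 and 226 FPKM. hnrnpl2 was at 147 and 177 FPKM, hnrnpr at 27.0 and 24.9 FPKM, hnrnph1l at 53.2 and 51.3 FPKM and hnrnpd, which binds AU-rich mRNA, at 10.8 and 11.5 FPKM. The A0 copies hnrnpa0a and hnrnpa0b were at 4.15 and 6.88 FPKM and at 10.7 and 20.2 FPKM. Listed under the older names hnrpl, hnrpdl and hnrpkl and outside the 86, hnrnpl was at 133 and 118 FPKM, hnrnpdl at 47.7 and 46.0 FPKM and hnrnpkl at 2.77 and 4.39 FPKM.

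Zebrafish keep many genes as 2 copies from the genome duplication of teleost fish. Among the 86 genes 14 pairs of copies were formed by name, and the origin of each pair was not checked. In 7 of 14 pairs the differences had opposite signs as deposited, a count that was 4 with both libraries scaled to the same total, 5 with centring and 9 with the length trend removed. In 4 pairs the differences were more than 1 apart on the log2 scale. For SRSF1 the copy srsf1a went from 262 to 175 FPKM while srsf1b was at 4.83 and 9.20 FPKM, so that srsf1a made up nearly all of the pair at both stages. For SRSF5 the share of srsf5a was 90.8% and 77.0%, and for SRSF6 the share of srsf6a was 96.9% and 91.9%. SRSF10 (1 of 2) held 41.8% of its pair at the earlier and 68.2% at the later stage. In 12 of the 14 pairs the copy with the higher summed level had the lower difference, although levels enter both quantities. The exceptions were SRSF10 and hnrnpa0. Among the 12, u2af2a and u2af2b were nearly tied, at 0.623 and 0.619. Without the length trend the more abundant u2af2b had the higher difference, 0.28 against -0.14 for u2af2a. With the length trend removed the copies of SRSF1 and SRSF10 were still 1.35 and 1.48 apart, those of SRSF6 were 0.93 and those of SRSF5 0.83 apart, and those of lsm12 and prpf4b were 1.19 and 1.05 apart, so that 4 pairs again lay more than 1 apart. The labels do not say how reads were divided between similar copies.

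**Figure D3:**
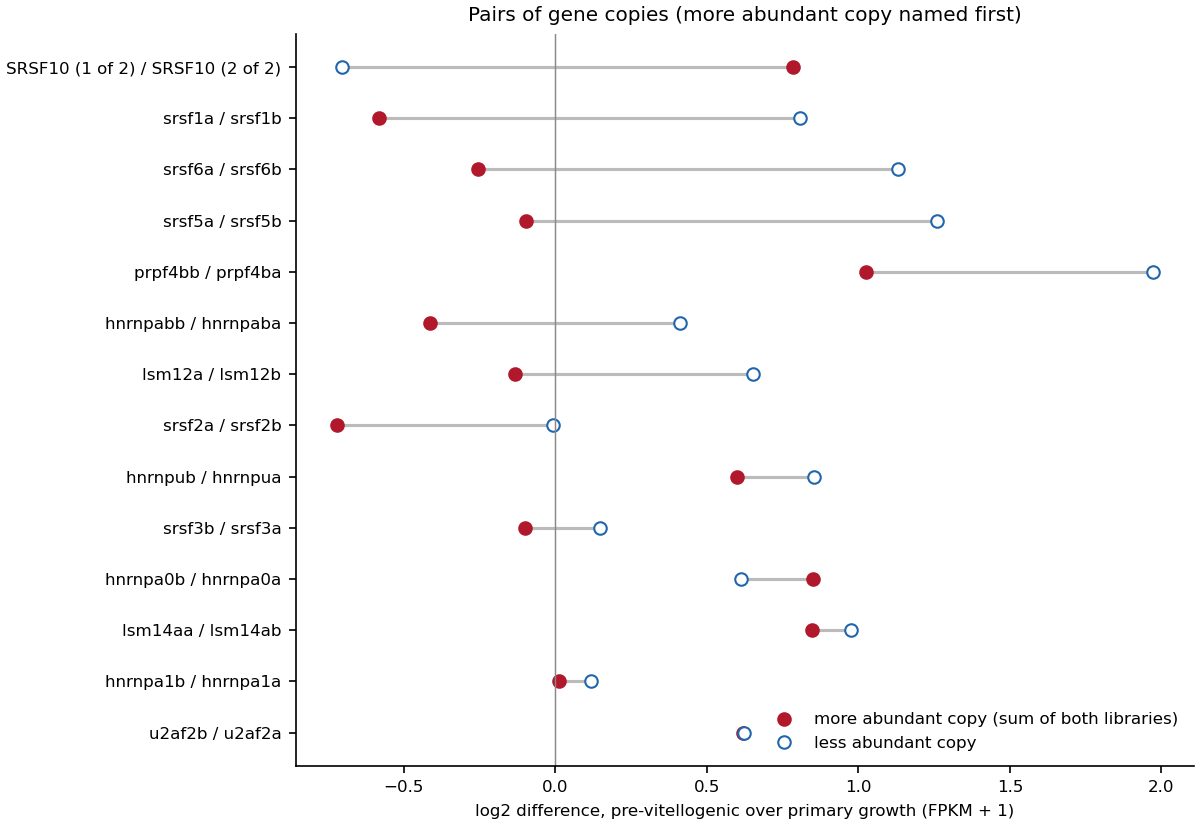
Difference (log2 of FPKM + 1, pre-vitellogenic over primary growth) of both copies in 14 pairs, the copy with the higher FPKM summed over both libraries as a filled point and the other as an open point, joined by a line. In 12 pairs the filled point lies to the left, although the points of u2af2 nearly coincide. In 7 the points lie on opposite sides of 0, which becomes 4 with both libraries scaled to the same total.

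Transcript length and level moved with these differences, over the 86 genes as over all names. Across the 86 genes Spearman's rho between mean transcript length and difference was 0.71, and across all 13317 names it was 0.47; genes of 1 pair of libraries share those libraries and are not independent, so these are descriptions. Within the U1, U2 and U2AF class rho was 0.89 over 16 genes. The 22 genes below 1000 bases, among them all 8 Sm genes, had a median difference of -0.44, against -0.15 for all names of that length. The 38 genes of 1000 to 2000 bases had -0.03 (0.23 for all names), the 15 of 2000 to 3000 bases 0.61 (0.72) and the 11 of 3000 bases or more 0.97 (1.12). In each of these 4 ranges the median of the splicing genes was the lower one. Of the 11 longest genes 5 were 2-fold higher, a share of 45.5% against 57.4% of all names of that length.

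By level the order varied. At a mean of 100 FPKM or more in the libraries, 24 splicing genes had a median difference of -0.41 and all 989 names -0.45. Between 30 and 100 FPKM the medians were 0.00 for 34 genes and 0.27 for 2775 names, between 10 and 30 FPKM 0.81 for 20 genes and 0.73 for 3503 names, and below 10 FPKM 0.58 for 8 genes and 0.71 for 6050 names. Of the 24 most abundant splicing genes 1 was 2-fold lower (4.17%), against 23.4% of all names at that level. Abundant names were also shorter, with a median of 1246 bases at 100 FPKM or more and 1928 bases below 10 FPKM. The part of length or level in the differences of the classes was not tested.

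**Figure D4:**
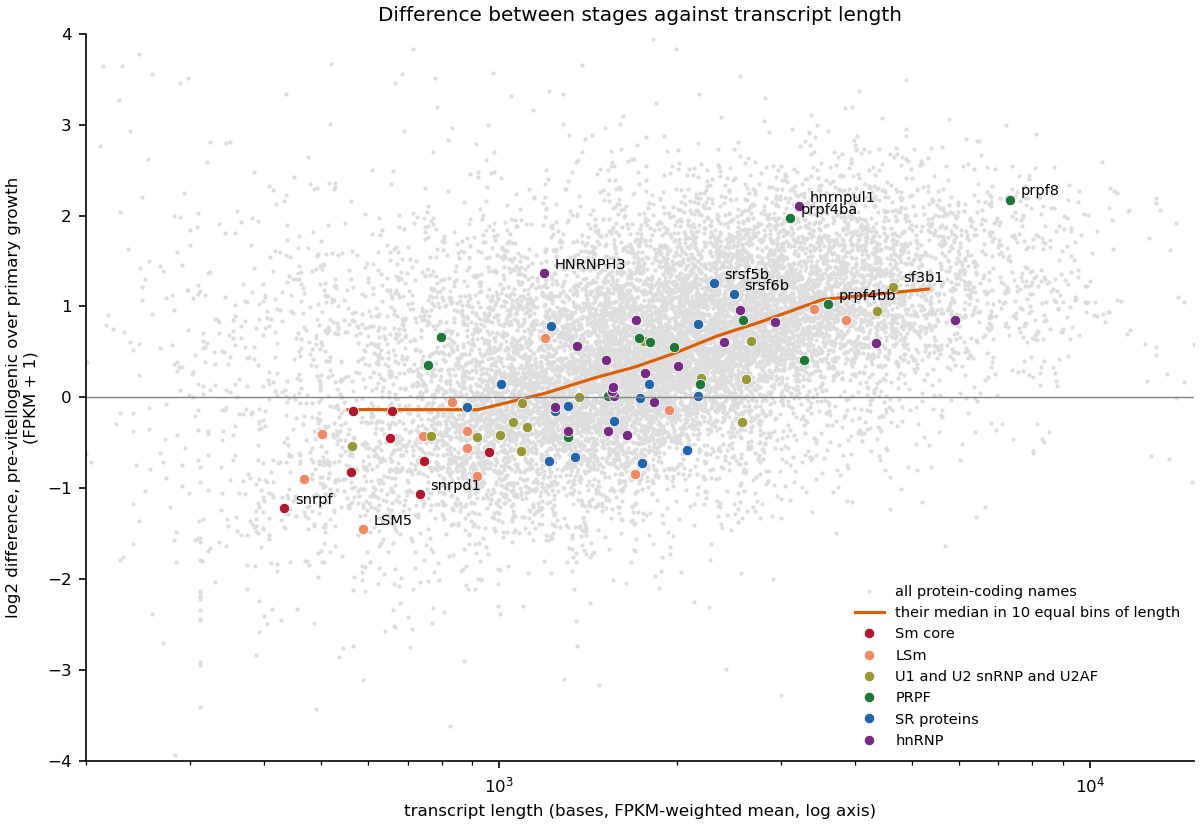
Difference (log2 of FPKM + 1, pre-vitellogenic over primary growth) against mean transcript length in bases on a log axis, for all protein-coding names in grey and for the splicing genes coloured by class, with the median of all names in 10 equal bins as a line; names beyond the axes are not drawn. The short Sm genes lie low and the long prpf8, sf3b1, prpf4ba and prpf4bb high. Among all names the difference also rises with length, less closely (Spearman's rho 0.47, against 0.71 over the 86 genes).

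Many splicing factors control their own amount through transcripts that are not translated into the full protein, such as those with a retained intron or a poison exon. The table lists transcripts of such other classes (retained intron, nonsense-mediated decay, processed transcript) for 33 of the 86 genes. In 11 of them (33.3%) such transcripts made up 20% or more of the gene's FPKM in a library, and the same held for 34.4% of 2831 names with such rows, so the share is near that of genes in general. By class this was 6 of 13 SR genes with such rows (46.2%), 4 of 10 hnRNP genes (40%) and 1 of 6 genes of U1, U2 and U2AF proteins (16.7%). For srsf5b the share was 76.2% at the earlier and 69.3% at the later stage, all of it in a processed transcript of 559 bases at 13.3 and 25.5 FPKM. srsf2a had 56.3% and 50.8% in 6 such transcripts, led by a retained intron form at 80.0 and 37.2 FPKM. For hnrnpd 71.9% and 68.7% lay in a retained intron form, and for sf3b1 45.5% and 41.5%. The share was lower in pre-vitellogenic follicles in 16 genes and higher in 11, beside 985 lower and 973 higher among all 2831 names. The widest gaps upward were those of SRSF10 (1 of 2), from 17.9% to 33.9%, and srsf6b, from 9.54% to 22.4%, and downward those of HNRNPH3, from 34.5% to 18.5%, and srsf9, from 40.9% to 29.2%. Transcripts of other classes were low in HNRNPH3, at 0.818 and 1.26 FPKM, and in srsf6b, at 0.863 and 5.53 FPKM. Short transcripts of one gene overlap its coding transcripts, so their FPKM rests on how reads were divided among them. Summed over SR genes, the share was 17.3% and 16.2%.

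**Figure D5:**
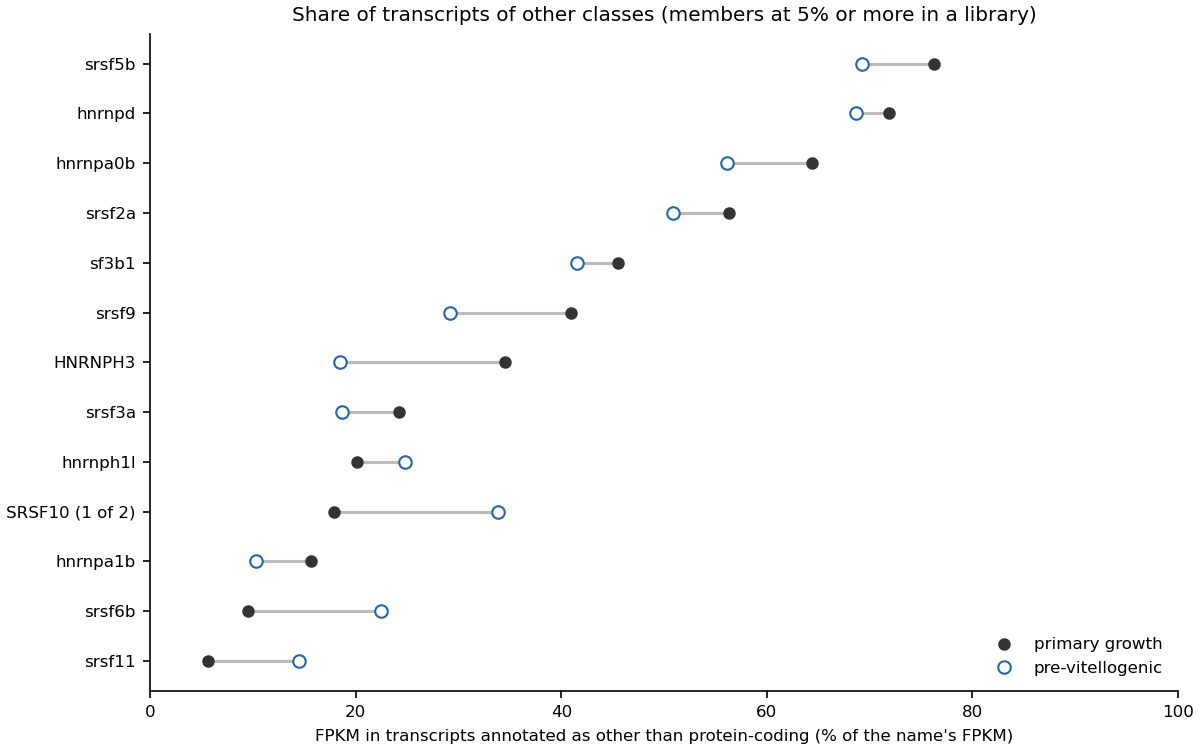
Share of a gene's FPKM, in percent, that lies in transcripts annotated as other than protein-coding, for genes at 5% or more in a library, with filled points for primary growth and open points for pre-vitellogenic follicles. The shares of srsf5b, hnrnpd, hnrnpa0b and srsf2a lie above 50% in both libraries.

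Of 44 gene names with several coding transcripts, 2 had a different leading one at each stage, hnrnpc and hnrnpk (4.55%). The 44 include prpf4 and hnrnpa0l, which have 1 coding transcript in each of 2 gene IDs. Among 6471 other names, which are less abundant in general, the leading transcript differed in 16.4%. In hnrnpk a form of 2099 bases made up 41.6% and 27.8% of the gene's coding FPKM and one of 1186 bases made up 25.3% and 33.2%. In hnrnpc the form of 1811 bases held 36.2% and 32.3%, and the one of 941 bases 36.2% and 41.0%. Both forms of hnrnpc stood at 72.4 FPKM in primary growth, so its change of leader rests on a near tie.

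Other genes of the splicing machinery, from a list that spans the remaining snRNP proteins, catalytic factors, regulators, kinases, assembly factors and the exon junction complex, had a median difference of 0.33. Of 140 listed genes 129 were found by name and 125 reached 1 FPKM. Of the 125, 20 (16.0%) were 2-fold higher and 3 (2.40%) lower, beside the 29.6% and 5.37% of all names. With the length trend removed 4 were higher (3.2%, against 12% of all names) and 4 lower (3.2%, against 8%). The 4 higher were RBM25 (2 of 2), zcrb1, mbnl1 and raly. In pre-vitellogenic follicles mbnl1 and raly reached only 2.29 and 2.47 FPKM. As deposited RBM25 (2 of 2) was at 17.4 and 55.3 FPKM or 1.61, and it was past 2-fold in all 11 settings. The other RBM25 entry, rbm25, was at 35.3 and 38.2 FPKM or 0.11. Mean transcript length was 922 bases for RBM25 (2 of 2) and 3092 for rbm25, and the division of reads between them is uncertain. The largest difference as deposited was that of dhx38, a helicase of the second catalytic step. It was at 1.72 FPKM in primary growth and 10.8 FPKM in pre-vitellogenic follicles, a difference of 2.12, which was 0.91 with the length trend removed. In that setting 0 of the 24 genes of its catalytic group were past 2-fold, while 12% of all names were higher and 8% lower. As deposited 5 of the 24 were higher (20.8%, against 29.6% of all names). The lowest of the group was bud31, at 137 and 102 FPKM. The U5 proteins that work with prpf8 did not all follow it: the helicase snrnp200 was at 12.6 and 34.0 FPKM, a difference of 1.37 that was 0.93 with centring and 0.14 with the length trend removed, whereas the GTPase eftud2 was at 24.3 and 37.2 FPKM, or 0.59, and txnl4a at 170.4 and 105 FPKM, or -0.70. Among proteins of the U5, tri-snRNP and minor snRNPs zrsr2, which reads the end of minor introns, was highest at 2.12 and 9.32 FPKM, or 1.72, and 0.84 with the length trend removed. The lowest was nhp2l1b, the U4 protein that PRPF31 binds with the RNA, at 638 and 306 FPKM or -1.06, and -0.91 with the length trend removed. Its call was also lost with the same FPKM total, with or without mitochondrially encoded genes.

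In the remaining groups the extremes were as follows. Of 39 regulators 8 were higher (20.5%, against 29.6% of all names) and 2 lower (5.13%, against 5.37%). They ran from ptbp3, a repressor of exons at 1.46 and 7.64 FPKM, to rbmx, at 42.2 and 17.2 FPKM, and tardbpl, at 25.5 and 9.78 FPKM or -1.30. With the length trend removed ptbp3 was at 0.69, and rbmx and tardbpl were past 2-fold at -1.41 and -1.65. The call of rbmx was lost by its most abundant transcript alone, at -0.33, and that of tardbpl with all transcript classes, at -0.33. Both were also lost with the same FPKM total when mitochondrially encoded genes were kept out of it. Of 12 U2-associated genes 0 were past 2-fold in either direction (0%, against 29.6% of all names higher and 5.37% lower). They ran from phf5a, a small SF3B subunit of 504 bases at 153 and 77.0 FPKM or -0.98, to the helicase ddx42 at 22.7 and 44.5 FPKM or 0.94. The 6 kinases of SR proteins ran from clk2b, at 41.6 and 36.6 FPKM, to clk4a, at 49.4 and 86.3 FPKM. Of 13 genes for snRNP assembly, which load Sm rings onto RNA, 2 were 2-fold higher (15.4%, against 29.6% of all names). These were gemin4, at 12.6 and 30.8 FPKM, and gemin5, at 15.1 and 32.0 FPKM, and the lowest was gemin7 at 229 and 141 FPKM. Both calls were lost with centring, at 0.78 and 0.59, by the 75th percentile and with the length trend removed, at 0.25 and -0.07. Their median was -0.11 and smn1, the core of that complex, was at 61.1 and 54.4 FPKM. In the exon junction complex acin1b was highest, at 29.3 and 73.1 FPKM or 1.29, and 0.33 with the length trend removed, and the mRNA export adaptor alyref lowest, at 109 and 56.4 FPKM.

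Marker genes of the cells in a follicle also differed between the libraries. All 12 oocyte markers were found, with a summed level of 6936 FPKM in primary growth and 2856 FPKM in pre-vitellogenic follicles. Of the 11 at 1 FPKM or more in a library, 5 were 2-fold lower and 1 higher. Among all names 5.37% were lower and 29.6% higher. All 12 granulosa and theca markers summed to 6.03 and 26.9 FPKM, and of the 8 at 1 FPKM or more in a library 7 were 2-fold higher. Listed at 0 in primary growth were fshr, nr5a1a and star. In pre-vitellogenic follicles these were also low, at 1.04, 2.60 and 0.184 FPKM. Smooth muscle and vessel markers, 5 of 6 found, summed to 6.60 and 33.7 FPKM with 4 higher. Erythrocyte markers, 3 of 6 found, summed to 55.5 and 53.0 FPKM, nearly all of it hbaa1 at 55.1 and 51.6 FPKM. The others, alas2 and slc4a1a, were below 1 FPKM in both libraries and stood higher in pre-vitellogenic follicles. Leukocyte markers, 5 of 6 found, summed to 5.22 and 2.80 FPKM, with 1 lower of the 3 at 1 FPKM or more in a library. Their part in the differences of splicing genes was not tested, and in whole follicles fewer cells of a type and less RNA per cell cannot be told apart. The read depth of the libraries is unknown, since the files give FPKM and no counts.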

How the data were processed

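The deposited mRNA table gives FPKM per transcript for each library, with a lower and an upper bound. Genome build Zv9, Cufflinks 2.2.1 and TopHat2 2.0.11 appear in the submitters' processing notes with no step attached. Libraries were paired-end, per the labels' protocols. Transcript lengths in bases and coordinates are those of the deposited table. Of 56711 rows, 42544 are annotated as protein-coding; 8316 rows without a transcript class were left out, and no row of the 86 genes was among them or marked as failed. Rows were summed by gene name (prpf3, prpf4 and hnrnpa0l sum 2 gene IDs), and length is the FPKM-weighted mean over coding transcripts. The small RNA libraries were not used here. The values of 1 of the 86 genes are not reported here.

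With 1 library per stage there was no test. Differences are log2 of FPKM + 1, called at 2-fold, for names at 1 FPKM or more. The scripts were tested on simulated data with known differences. Alternatives were pseudocounts of 0.1 and 5 FPKM, a minimum of 5 FPKM or none, the same FPKM total with or without mitochondrially encoded genes, centring on names at 1 FPKM or more in both libraries, the 75th percentile, removal of the length trend (lowess, span 0.3) with centring, all transcript classes, and the most abundant transcript.

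The genes, classes and lists were chosen with earlier results of these data known. Named with values by rule were, per class, the genes past 2-fold, the 3 most abundant and the highest and lowest difference, pairs over 1 apart, and, of other splicing genes, the 3 largest differences each way at 5 FPKM or more and the extremes of each group. Other genes were named for their role, or for how they stood under the settings, after their values were seen. Family members under other table names were matched by gene ID to current symbols. Python 3.11.15 was used with pandas 2.3.3, numpy 2.4.6, scipy 1.17.1, statsmodels 0.14.6 and matplotlib 3.10.9.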

Additional observations from a re-analysis of the deposited data

How the results depend on the processing

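Values for the 86 splicing genes are followed by those for the 125 other splicing genes. With the same FPKM total, 18 and 32 were higher, 1 of the 86 was lower, and the medians were 0.26 and 0.57. Leaving mitochondrially encoded genes out of that total gave 18 and 35 higher, 1 and 0 lower, and medians of 0.34 and 0.66. Centring gave 3 and 8 higher, 14 and 13 lower, and medians of -0.44 and -0.11. The 75th percentile gave 4 and 8 higher, 14 and 12 lower, and medians of -0.43 and -0.10. Removing the length trend gave 3 and 4 higher, 5 of the 86 lower, and medians of -0.21 and -0.13. A pseudocount of 5 FPKM gave 4 and 12 higher and a median of 0.27 for the other splicing genes. Their median was 0.34 with a pseudocount of 0.1 FPKM, 0.32 without a minimum and with all transcript classes, and 0.24 with the most abundant transcript, where 5 were lower. Leaving out hnrnpa0l, a choice made after seeing the data, moved the median of the set to 0.0098. Counts not given were within 1.5 times of the deposited values, and beyond the constructions named the causes were not tested. No paired analysis was possible because each stage has 1 mRNA library, and for the same reason no library could be left out. Without counts, the depth behind low FPKM is unknown.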
